A study of Homo sapiens with 6 samples.

Results

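NRF2, the protein encoded by NFE2L2, is the transcription factor that controls a large part of the antioxidant and detoxifying genes of human cells. In resting cells the adaptor protein KEAP1 links NRF2 to the CUL3 ubiquitin ligase, and NRF2 is broken down by the proteasome. When reactive cysteines of KEAP1 are modified, NRF2 escapes, enters the nucleus, pairs with a small MAF protein such as MAFG and binds antioxidant response elements (AREs) near its target genes. The described group holds 9 genes: the factor (NFE2L2), its inhibitor (KEAP1), a binding partner (MAFG) and 6 widely used targets (NQO1, GCLC, GCLM, TXNRD1, SRXN1 and OSGIN1). They were chosen by gene symbol, 9 of 62252 genes in the GENCODE release 44 annotation. Their measured values were not part of the rule, but the list was drawn up with earlier results of these data known. All 9 had enough reads to be tested. Only mRNA was measured, and NRF2 activity is set largely by the stability of the protein.

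The study asked how the K562 transcriptome responds to low iron. K562 is an erythroid leukemia cell line. The Chelator group was grown overnight in 10 µM of 21H7, a cell-permeable compound that binds iron, and the DMSO group in an equal volume of the solvent. Each group had 3 libraries of polyA-selected RNA, given as biological replicates, and by the labels the groups differed only in this treatment. The chelator was the sole means of lowering iron, so low iron and other effects of 21H7 cannot be told apart.

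The 6 libraries held between 78615500 and 101094957 estimated read counts. In DMSO 18973 to 19807 genes had at least 10 counts, and in Chelator 20253 to 21067. The erythroid and K562 markers GATA1, TAL1, KLF1, LMO2, HBG1, HBG2 and HBE1 were all present, at group means of 44.7 TPM (a level per transcript length, on a common scale across libraries) or more. Some of them moved with the treatment: KLF1 (82.0 to 50.9 TPM, log2 fold change -0.72, DESeq2 adjusted p = 4.54e-23), LMO2 (-0.72, adjusted p = 6.55e-26) and TAL1 (-0.28, adjusted p = 0.000384) were lower, and HBE1 (0.76, adjusted p = 2.51e-17), HBG1 (0.24, adjusted p = 0.0114) and HBG2 (0.37, adjusted p = 6.04e-05) were higher. Of the markers of other cell types, the T cell marker CD3E, the monocyte marker CD14 and the hepatocyte marker ALB had group means under 0.5 TPM. The fibroblast marker COL1A1 had means of 0.589 TPM in DMSO and 1.83 in Chelator, and the epithelial marker EPCAM had 65.4 TPM in DMSO and 47.9 in Chelator. The typical gap between transcript length and effective length, which follows the length of the sequenced fragments, was 252 to 264 bases in the DMSO libraries and 200 to 218 bases in those with chelator. The ranges do not overlap, and an effect of fragment length cannot be told apart from that of the treatment. In bulk RNA, fewer cells of a kind and less RNA per cell cannot be told apart either.

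The core letters of an ARE, TGACNNNGC, were searched on both strands of the RefSeq promoter windows (GRCh38.p14, 250 bases before to 50 bases after a start site). Of all 35116 windows, 4687 (13.3%) held at least 1 match. The 9 genes had 12 windows, of which 4 (33.3%) held a match, belonging to GCLM, KEAP1 and TXNRD1. No match in a window says only that these letters are not there. The 4 matches near starts used by the main transcripts are shown because they are the places where the described promoters hold the core letters, with the fixed letters of the core in capitals and each read along the strand that carries it.
GCLM, chr1:93909446-93909474, plus strand: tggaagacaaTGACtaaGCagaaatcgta
KEAP1, chr19:10502807-10502835, minus strand: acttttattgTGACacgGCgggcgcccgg
KEAP1, chr19:10502784-10502812, plus strand: caggtcaccaTGACtaaGCagagccgggc
TXNRD1, chr12:104286920-104286948, minus strand: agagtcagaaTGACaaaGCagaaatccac

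The GCLM core lay 26 bases before the start of the main transcript GCLM-201 and reached into the first exon of GCLM-204. Both KEAP1 cores lay in the first exon of KEAP1-202, outside the coding sequence, and in an intron of KEAP1-201. The TXNRD1 core lay in the first exon of TXNRD1-201 and of TXNRD1-210, also outside the coding sequence. TXNRD1 held a further pair of matches at a distant start site, 70903 bases or more before TXNRD1-201 and TXNRD1-210. These 3 genes did not share a direction of change: GCLM and KEAP1 mRNA fell, and TXNRD1 did not pass the test. A match is a description of letters and was not tested as a binding site.

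After chelation the mRNA of the factor rose and that of its inhibitor fell, by modest amounts, while the targets split. NQO1 and OSGIN1 rose, GCLM fell, and GCLC, TXNRD1 and SRXN1 did not pass the test. Across the 9 genes, 3 were higher and 2 were lower at a DESeq2 adjusted p under 0.05. Of the 24542 genes with an adjusted p, 37.7% passed, 19.5% higher and 18.3% lower. All 9 averaged 500 or more normalized counts, and of the 10341 genes at that level 61.6% passed, so 5 of 9 is near the background for genes measured this well. Only OSGIN1 also passed an absolute log2 fold change of 1, against 10.8% of all genes and 5.88% of the well-measured genes. Over the 9 genes the median log2 change was 0.12, against 0.016 for all genes with an adjusted p. For 6 of 9 the 3 Chelator libraries did not overlap the 3 DMSO libraries, 3 higher and 3 lower, against 49.2% of all genes (25.5% higher and 23.7% lower) and 68.2% of the well-measured ones.

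**Figure D1:**
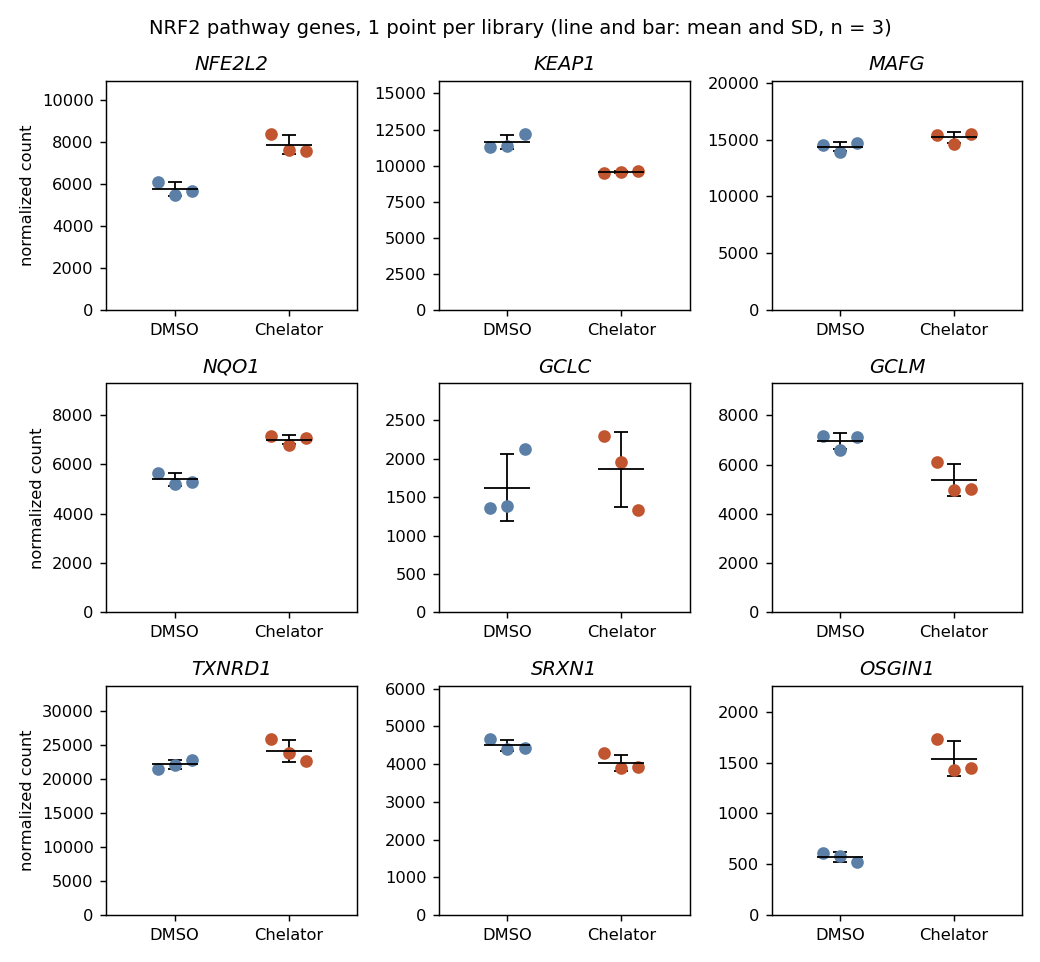
Normalized counts (vertical axis, from 0) of the 9 genes in the DMSO and Chelator groups, with 1 point per library and lines and bars for the mean and SD of 3 libraries. The groups separate for NFE2L2, KEAP1, NQO1, GCLM, SRXN1 and OSGIN1, and overlap for MAFG, GCLC and TXNRD1.

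NFE2L2 (ENSG00000116044.17, chr2:177218667-177392756) encodes NRF2 itself. Its normalized counts, which are estimated counts corrected for library size and for transcript length, were 6112, 5485 and 5655 in DMSO and 8388, 7608 and 7589 in Chelator. Every Chelator library was above every DMSO library. The mean rose from 5751 ± 324 to 7862 ± 456 (SD, n = 3 each), a change of 0.45 on the log2 scale (SE 0.079, 95% interval 0.30 to 0.61, DESeq2 adjusted p = 9.68e-08). Over 15 alternative ways of processing, the log2 fold change ranged from 0.27 to 0.51 and passed in all 15. Of the 31-base words in all its annotated transcripts, 39.5% also occur in other genes, 21.6% in HNRNPA3 on the opposite strand, but in its main transcripts the share was 6.42%. How strand was used in counting is not given in the sources used here.

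KEAP1 (ENSG00000079999.14, chr19:10486125-10503558), the sensor and inhibitor, went the other way. It had 11324, 11339 and 12200 normalized counts in DMSO and 9471, 9529 and 9659 in Chelator, with no overlap. The mean went from 11621 ± 502 to 9553 ± 96.0 (SD, n = 3 each), a change of -0.28 on the log2 scale (SE 0.066, 95% interval -0.41 to -0.15, DESeq2 adjusted p = 0.000106), and it passed in all 15 alternatives.

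The opposite moves of these genes showed most plainly in their ratio within a library, which does not depend on library scaling. Per length, the NFE2L2 to KEAP1 ratio of TPM was 0.672, 0.602 and 0.577 in DMSO. In Chelator it was 1.10, 0.994 and 0.978. NFE2L2 mRNA was thus below KEAP1 mRNA in each DMSO library and about level with it in each Chelator library. The mean ratio was 0.617 ± 0.049 in DMSO and 1.02 ± 0.068 in Chelator (SD, n = 3 each), a log2 difference of 0.73 with p = 0.10 in a two-sided exact permutation test, which is the smallest p that 3 against 3 allows.

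**Figure D2:**
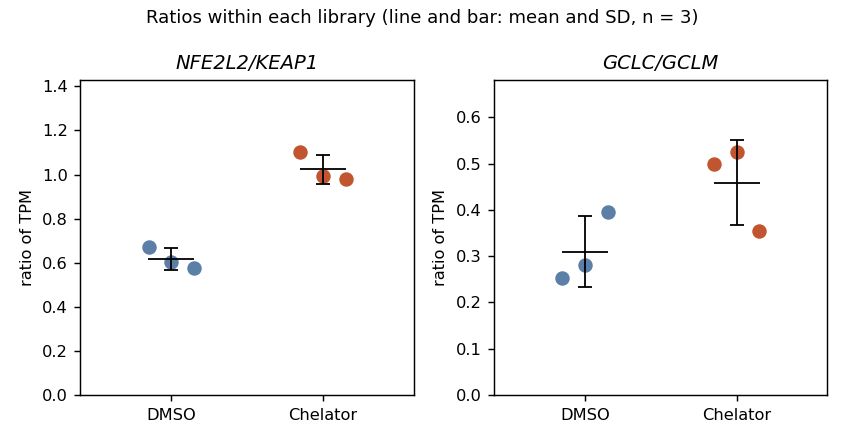
TPM ratios within each library (vertical axes, no unit, from 0) for NFE2L2 over KEAP1 and for GCLC over GCLM, with 1 point per library and lines and bars for the mean and SD of 3 libraries. The NFE2L2 to KEAP1 ratio is 0.577 to 0.672 in DMSO and 0.978 to 1.10 in Chelator, while the groups overlap for GCLC over GCLM.

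MAFG (ENSG00000197063.11, chr17:81918270-81927735) encodes a small MAF protein, the partner NRF2 needs to bind DNA. Its normalized counts were 14530, 13911 and 14683 in DMSO and 15413, 14625 and 15497 in Chelator, and the groups overlapped. The log2 fold change was 0.08 (SE 0.065, 95% interval -0.05 to 0.21, DESeq2 adjusted p = 0.377). Protein-coding transcripts alone gave 0.13 with an adjusted p of 0.0072, and centring all genes on a mean change of 0 turned the value to -0.10, so no direction is given for MAFG.

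Among the targets, NQO1 (ENSG00000181019.13, chr16:69706996-69726668) encodes a reductase that detoxifies quinones and is a standard readout of NRF2 activity. It had 5659, 5204 and 5270 normalized counts in DMSO and 7122, 6787 and 7072 in Chelator, with every Chelator library higher. The mean rose from 5378 ± 246 to 6994 ± 180 (SD, n = 3 each), a change of 0.38 on the log2 scale (SE 0.072, 95% interval 0.24 to 0.52, DESeq2 adjusted p = 8.83e-07). It passed in all 15 alternatives, with values from 0.20 to 0.44. An antisense gene that shares 31-base words with it (23.8% of the words of its main transcripts were shared with other genes) was listed at 0 counts in all libraries.

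GCLC and GCLM encode the catalytic and the modifier subunit of glutamate-cysteine ligase, the enzyme that limits glutathione synthesis. GCLM (ENSG00000023909.10, chr1:93885199-93909456) had 7145, 6598 and 7137 normalized counts in DMSO and 6119, 4963 and 5002 in Chelator. All Chelator libraries were lower. The mean went from 6960 ± 313 to 5361 ± 656 (SD, n = 3 each), a change of -0.38 on the log2 scale (SE 0.095, 95% interval -0.56 to -0.19, DESeq2 adjusted p = 0.000359), and it passed in all 15 alternatives, with values from -0.56 to -0.32.

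GCLC (ENSG00000001084.13, chr6:53497341-53616970) gave no stable value. Its normalized counts were 1356, 1391 and 2126 in DMSO and 2293, 1959 and 1336 in Chelator, so that 1 library of each group sat with the other group. The log2 fold change was 0.20 (SE 0.31, 95% interval -0.41 to 0.80, DESeq2 adjusted p = 0.678). The estimated counts before correction were much closer, at 1664, 1632 and 1531 in DMSO and 1967, 1910 and 1542 in Chelator. The average effective length of its transcripts came to 2948, 2858 and 1985 bases in the DMSO libraries and to 1892, 1901 and 2725 bases in the Chelator libraries, and it was short in the 3 libraries whose normalized counts were high. Without the length correction the log2 fold change was -0.07. Without DMSO replicate 3 it was 0.44, without Chelator replicate 3 it was 0.39 and without Chelator replicate 1 it was 0.02, none of them past the test.

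The shift in GCLC length came with 1 short transcript. GCLC-210, of 553 bases and with no defined coding sequence, received 0, 0 and 67 estimated counts in DMSO and 109, 103 and 0 in Chelator. Those counts made 29.6% of the gene's TPM in DMSO replicate 3, 32.1% in Chelator replicate 1 and 30.8% in Chelator replicate 2. The full-length coding transcript GCLC-214, of 637 amino acids, took 79.2%, 75.1% and 44.3% in DMSO and 37.9%, 39.7% and 65.3% in Chelator. GCLC-207, of 599 amino acids, took 13.0%, 14.4% and 19.0% in DMSO and 21.0%, 20.3% and 25.0% in Chelator, without overlap. With protein-coding transcripts only, the GCLC log2 fold change was 0.07 (adjusted p = 0.57).

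The TPM ratio of the catalytic to the modifier subunit was 0.252, 0.280 and 0.396 in DMSO and 0.498, 0.524 and 0.355 in Chelator, and the groups overlapped. The log2 difference was 0.58 (two-sided exact permutation p = 0.20). It carries the same library pattern as GCLC-210. With protein-coding transcripts only it was 0.40 (exact permutation p = 0.10).

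TXNRD1 (ENSG00000198431.18, chr12:104215779-104350307) encodes the selenoprotein that keeps thioredoxin reduced. It had 21523, 22134 and 22862 normalized counts in DMSO and 25936, 23864 and 22668 in Chelator, and Chelator replicate 3 lay inside the DMSO range. The log2 fold change was 0.12 (SE 0.073, 95% interval -0.02 to 0.27, DESeq2 adjusted p = 0.184). It passed when only transcripts of at least 500 bases (0.20, adjusted p = 0.00769) or only protein-coding transcripts (0.18, adjusted p = 0.00673) were summed, and centring on the mean change gave -0.05.

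SRXN1 (ENSG00000271303.2, chr20:646615-653200) encodes sulfiredoxin, which repairs over-oxidized peroxiredoxins. It had 4671, 4404 and 4419 normalized counts in DMSO and 4285, 3898 and 3911 in Chelator. The groups did not overlap, but the change did not pass the test. The log2 fold change was -0.16 (SE 0.078, 95% interval -0.31 to -0.01, DESeq2 adjusted p = 0.0979). Centring on the mean change (-0.34, adjusted p = 7.13e-05) and leaving out Chelator replicate 1 (-0.20, adjusted p = 0.0164) brought it past the test. Of its 31-base words 90.6% also belong to an overlapping gene on the same strand, which received 0 to 5 counts, so reads of the pair cannot be told apart.

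OSGIN1 (ENSG00000140961.14, chr16:83931311-83966332), an oxidative stress-induced inhibitor of cell growth, was the only 1 of the 9 past the fold threshold. It had 612, 578 and 518 normalized counts in DMSO and 1735, 1423 and 1452 in Chelator. The lowest Chelator library was far above the highest DMSO library. The mean rose from 569 ± 47.6 to 1537 ± 172 (SD, n = 3 each), 2.70-fold and a change of 1.43 on the log2 scale (SE 0.12, 95% interval 1.19 to 1.68, DESeq2 adjusted p = 5.54e-29). It stayed above 1 in all 15 alternatives, between 1.25 and 1.53. The neighbouring gene MLYCD, which overlaps it on the same strand, had 263 to 482 estimated counts, and only 0.627% of the 31-base words of OSGIN1's main transcripts were shared with any other gene.

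Set side by side per length, the 9 mRNAs covered a wide range of levels. In DMSO the order by mean TPM was TXNRD1 (142 ± 14.4), NQO1 (77.8 ± 5.66), KEAP1 (60.6 ± 5.21), MAFG (46.2 ± 3.16), NFE2L2 (37.2 ± 2.34), GCLM (28.8 ± 1.44), SRXN1 (24.9 ± 2.0), GCLC (8.89 ± 2.10) and OSGIN1 (4.41 ± 0.578), with SD over 3 libraries. In that order no gene's range over libraries overlapped its neighbour's. In Chelator TXNRD1 (158 ± 8.50) and NQO1 (103 ± 1.20) were still on top, each clear of its neighbours. NFE2L2 (51.9 ± 1.82), KEAP1 (50.8 ± 1.71) and MAFG (49.7 ± 0.954) then lay in overlapping ranges, as did SRXN1 (22.7 ± 0.699) with GCLM (22.6 ± 2.16) and OSGIN1 (12.1 ± 1.03) with GCLC (10.4 ± 2.61).

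By the pattern over the 6 libraries, the genes most like NFE2L2 among 10340 well-measured genes were AK4 (Pearson r = 0.9994 of log2 normalized counts), DYNC2LI1 (0.9990) and PCLAF (0.9979). This is a description over 6 libraries that share 2 conditions, and 1833 genes had an r above 0.9.

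Transcript usage, the share of a gene's TPM that each transcript takes, was tested with edgeR for 8 of the 9 genes, SRXN1 having a single annotated transcript. At an adjusted p under 0.05 with a share moving by over 5 percentage points, 0 of 8 were called, against 9.22% of 11938 genes. At an unadjusted p under 0.05 the count was also 0. limma's diffSplice, the other tool run, called NQO1 (adjusted p = 0.000894) and GCLM (adjusted p = 0.0260), where edgeR gave adjusted p of 0.311 and 0.349. limma called 26.7% of all genes, so 2 of 8 is near its background. The shares of 11 of the 22 transcripts described did not overlap between the groups, against 35.2% of 32323 such transcripts over all genes tested for usage and 40.5% of those in genes with at least 500 counts on average.

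The 4 main NQO1 transcripts NQO1-201, NQO1-202, NQO1-204 and NQO1-206 encode proteins of 274, 236, 202 and 253 amino acids, in that order. The full-length form NQO1-201 took 12.8%, 12.3% and 12.8% of NQO1 TPM in DMSO and 7.31%, 8.44% and 7.32% in Chelator. NQO1-204, which encodes the 202-residue form, took 8.99%, 14.6% and 17.2% in DMSO and 22.0%, 20.8% and 24.0% in Chelator. Neither pair of ranges overlapped, and the mean shares moved from 12.6% to 7.69% and from 13.6% to 22.2%. NQO1-202, also without overlap, averaged 34.8% and 29.0%, and NQO1-206, with overlap, 36.3% and 38.8%.

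For GCLM, the longer transcript GCLM-201 (4883 bases, 274 amino acids, 3794 bases after the coding sequence) averaged 78.6% ± 3.77 of TPM in DMSO and 68.4% ± 3.39 in Chelator. GCLM-204 (3008 bases, 252 amino acids, 1959 bases after the coding sequence) averaged 20.6% ± 3.62 and 30.3% ± 3.52 (SD, n = 3 each). The TPM of GCLM-201 was 21.8, 25.1 and 21.1 in DMSO and 18.1, 14.6 and 13.8 in Chelator, with no overlap. That of GCLM-204 was 5.86, 5.12 and 6.76 in DMSO and 6.62, 6.79 and 7.01 in Chelator, so the lower GCLM level lay in GCLM-201. NQO1-204 and GCLM-204 are shorter than NQO1-201 and GCLM-201 and had larger shares in the libraries with shorter fragments, and the part of fragment length in these shares was not tested.

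**Figure D3:**
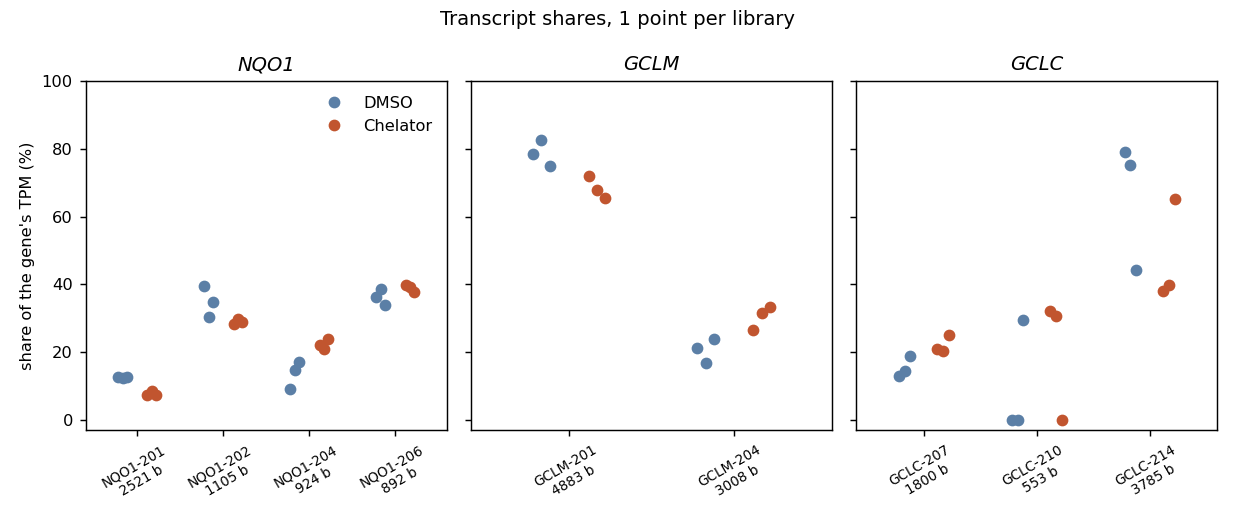
Share of the gene's TPM (vertical axis, percent) taken by each transcript with a mean share of at least 10% in either group, for NQO1, GCLM and GCLC, with 1 point per library and transcript lengths in bases (b). GCLC-210 is at 0% in 3 libraries and at 29.6% to 32.1% in the other 3, across both groups, whereas NQO1-201 and NQO1-204 separate by group.

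Of the remaining genes, NFE2L2 and TXNRD1 had transcripts whose shares did not overlap between the groups, although neither gene was called. NFE2L2-201, which encodes the 605-residue NRF2, averaged 73.5% ± 1.62 in DMSO and 68.8% ± 0.731 in Chelator, and NFE2L2-216, which encodes 598 residues from the same start codon, averaged 12.1% ± 2.68 and 15.8% ± 0.510. The TPM of NFE2L2-201 itself was 27.8, 29.3 and 25.0 in DMSO and 37.2, 35.9 and 34.1 in Chelator, so the rise was present in the main form. For TXNRD1, the shares of TXNRD1-202 (11.6% ± 0.969 in DMSO and 14.4% ± 1.18 in Chelator), TXNRD1-207 (13.4% ± 1.37 and 17.2% ± 1.82) and TXNRD1-209 (21.9% ± 1.93 and 17.6% ± 0.931) did not overlap, and those of TXNRD1-201 and TXNRD1-210 did. The 2 main KEAP1 transcripts both encode 624 amino acids, and their shares overlapped between the groups. MAFG-201 and MAFG-202 likewise encode the same 162 amino acids and overlapped. OSGIN1-203, the form of 477 amino acids, took 74.8% ± 5.99 in DMSO and 80.7% ± 8.07 in Chelator, and OSGIN1-206 took 24.3% ± 6.34 and 17.5% ± 6.99, both overlapping and with a wide spread between libraries.

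A wider list of 55 genes of the pathway, regulators and targets not among the 9, was read from the same fit. Of these, 51 had enough counts to be tested, and 50 received an adjusted p. The other, AKR1B10, is counted below as not passing. At a DESeq2 adjusted p under 0.05, 22 were higher, 12 were lower and 17 did not pass, against 37.7% of all genes passing (19.5% higher and 18.3% lower) and 61.6% of the well-measured ones. Of the 45 that were themselves well measured (500 or more normalized counts on average), 33 passed (73.3%). Over the 51 tested genes, centring on the mean change, which lowers every log2 value by 0.18, gave 15 higher and 16 lower. Past the fold threshold, 6 were higher (8.18% of all genes were) and 0 were lower (2.60% of all genes were). The median log2 change of the list was 0.17, against 0.016 for all genes and -0.070 for the well-measured ones.

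The counts by role that follow are small and stand against those same shares of 37.7% of all genes (19.5% higher and 18.3% lower) and 61.6% of well-measured genes. Among 14 regulators, 4 were higher and 7 were lower. CUL3, the ligase scaffold that KEAP1 hands NRF2 to, had 9554, 9235 and 9583 normalized counts in DMSO and 5918, 5543 and 5692 in Chelator. Its log2 fold change was -0.73 (SE 0.067, DESeq2 adjusted p = 1.20e-25), the largest fall in the list among genes that passed the test. Further parts of NRF2 turnover, BTRC (-0.37, adjusted p = 0.00211), the adaptor of a KEAP1-independent ligase, and PGAM5 (-0.50, adjusted p = 8.87e-12), a mitochondrial phosphatase bound by KEAP1, were also lower, although BTRC missed the threshold with protein-coding transcripts only (-0.20, adjusted p = 0.0551). RBX1, the RING subunit of the same CUL3 ligase, was higher instead (0.70, SE 0.13, adjusted p = 9.09e-07), with means of 2097 ± 226 normalized counts in DMSO and 3411 ± 632 in Chelator (SD, n = 3 each). DPP3, a peptidase that binds KEAP1, had -0.02 (95% interval -0.15 to 0.11, adjusted p = 0.840). GSK3B, the kinase that marks NRF2 for the BTRC route, was lower (-0.36, adjusted p = 0.000106). RBX1, DPP3 and GSK3B fell outside the naming rule and were chosen after their values were seen. SQSTM1, which encodes p62, the autophagy receptor that takes up KEAP1, rose from 11476, 9716 and 11078 normalized counts to 25944, 25565 and 31324. Its log2 fold change was 1.36 (SE 0.097, DESeq2 adjusted p = 8.74e-43), and it was 0.97 when transcripts under 500 bases were left out, just under the fold threshold. Of these 7 genes CUL3, BTRC, GSK3B and PGAM5 were lower, RBX1 and SQSTM1 were higher and DPP3 did not pass.

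The DNA-binding relatives of NRF2 did not move as 1 group. MAFF, another small MAF, rose from 652, 591 and 610 normalized counts to 2000, 2002 and 2081, a log2 change of 1.71 (SE 0.098, adjusted p = 2.11e-66). BACH2, a relative that represses at similar sites, rose from 324, 398 and 417 normalized counts to 2428, 2084 and 1761, a log2 change of 2.47 (SE 0.14, adjusted p = 1.22e-63). BACH1, the heme-sensitive repressor at many NRF2 sites, had 6656, 8617 and 7146 normalized counts in DMSO and 10218, 7539 and 6696 in Chelator, which overlapped (log2 fold change 0.13, DESeq2 adjusted p = 0.532). NFE2, the erythroid member of the family, was lower (-0.40, adjusted p = 1.24e-07), with 16303 to 17553 normalized counts in DMSO and 12487 to 13699 in Chelator. The erythroid factors KLF1, LMO2 and TAL1 were lower in the same libraries, and their part in the NFE2 value was not tested. MAFK, the remaining small MAF, was lower (-0.27, adjusted p = 0.00175), as was NFE2L3 (-0.31, adjusted p = 0.0116), while NFE2L1 had 0.14 (adjusted p = 0.0950). These last 3 fell outside the naming rule and were chosen after their values were seen. Both MAFF and BACH2 passed in all 15 alternatives.

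**Figure D4:**
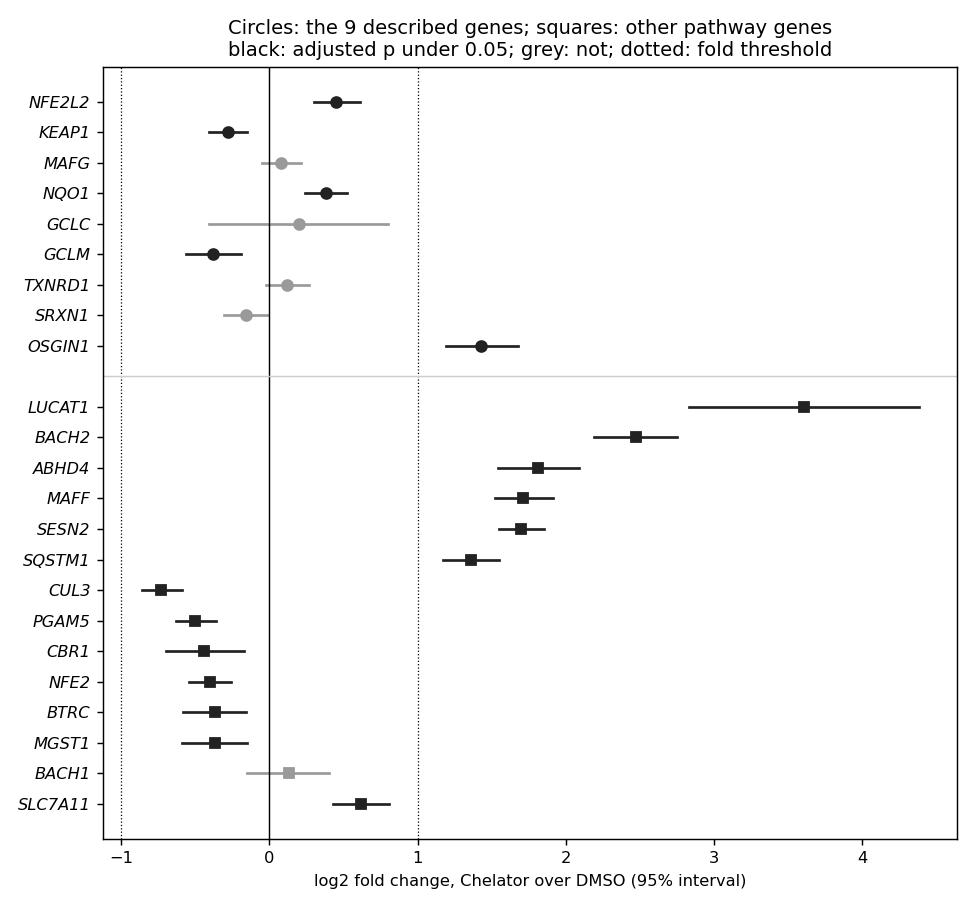
Log2 fold changes, Chelator over DMSO (horizontal axis), with 95% intervals, of the 9 genes (circles) and of the pathway genes named by rule (squares), black where the DESeq2 adjusted p is under 0.05 and grey where it is not, with dotted lines at the fold threshold. OSGIN1 at 1.43 is the only circle past a dotted line, and the squares run from -0.73 for CUL3 to 3.61 for LUCAT1.

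In glutathione handling 3 of the 6 tested genes were higher and 2 were lower. SLC7A11, the cystine importer that feeds glutathione synthesis, had 4217, 4729 and 4083 normalized counts in DMSO and 7498, 6220 and 6299 in Chelator (log2 fold change 0.62, SE 0.097, DESeq2 adjusted p = 1.75e-09). MGST1, a membrane glutathione transferase, was lower (-0.37, adjusted p = 0.00313). GCLM, described above, thus fell while the importer upstream of it rose.

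Of the 6 enzymes that supply NADPH, 4 were higher and 1 was lower, where 61.6% of well-measured genes passed in either direction. PGD, an enzyme of the pentose phosphate pathway, rose by a log2 fold change of 0.47 (DESeq2 adjusted p = 3.97e-13). Of the thioredoxin pair, TXN was higher (0.45, adjusted p = 4.79e-05) and PRDX1 had 0.17 (adjusted p = 0.0921). These 3 genes fell outside the naming rule and were chosen after their values were seen.

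Of the heme and iron genes on the list, HMOX1, heme oxygenase-1 and a classical NRF2 and BACH1 target, was barely detected. It had 1, 0 and 1 estimated counts in DMSO and 0, 0 and 0 in Chelator, too few to test. Of the 4 tested genes of this role 2 were higher. Of 9 detoxification genes with an adjusted p, 4 were higher and 2 were lower. CBR1, a carbonyl reductase, had 1086, 996 and 1058 normalized counts in DMSO and 638, 810 and 873 in Chelator (log2 fold change -0.44, SE 0.13, DESeq2 adjusted p = 0.00432). None of the 4 exporters of the ABCC family passed at the adjusted threshold, nor at an unadjusted p under 0.05. ABCC2 (mean TPM 0.0275 in DMSO and 0.0143 in Chelator) and ABCC3 (0.159 and 0.302) were near the floor, so their tests say little. Both fell outside the naming rule and are named for their low level.

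Among 5 other targets 4 were higher, LUCAT1 with the largest rise of the list among genes that passed the test. LUCAT1, a long noncoding RNA, had 37.8, 13.7 and 8.52 normalized counts in DMSO and 267, 211 and 232 in Chelator. Its log2 change of 3.61 (SE 0.39, adjusted p = 1.35e-18) rests on 9 to 33 estimated counts in the DMSO libraries. Leaving out 1 library at a time gave 3.24 to 4.39, the highest value without DMSO replicate 1. ABHD4, a lipid hydrolase, rose from 780, 540 and 826 normalized counts to 2421, 2509 and 2599 (1.81, SE 0.14, DESeq2 adjusted p = 3.66e-36). SESN2, a stress-induced sestrin that also answers to other stress factors, rose from 5126, 4778 and 4882 normalized counts to 17230, 15055 and 15810 (1.70, SE 0.077, DESeq2 adjusted p = 2.70e-106). For all 3 the groups were far apart.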

How the data were processed

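PolyA-selected RNA of 6 K562 libraries was sequenced as paired-end Illumina reads. The authors quantified it with Salmon (version 1.10.2 in the submitters' processing notes), and the deposited files give estimated counts and TPM for 252045 transcripts per library. The annotation, the bias corrections and the use of strand are not given in the sources used here. Transcripts were matched to GENCODE release 44 on GRCh38 (433 had no match, at most 0.15% of counts), and the estimated counts were summed per gene and rounded. DESeq2 1.42.0 (R 4.3.3) compared Chelator with DMSO by the Wald test over 26074 genes with a total above 10, with median-ratio size factors, an average transcript length offset and Benjamini-Hochberg adjustment. Calls needed an adjusted p under 0.05 together with a log2 change beyond 1 in either direction. Transcript usage was tested with edgeR 4.0.16 (diffSpliceDGE, at least 10 counts in at least 3 libraries) and, as an alternative, limma 3.58.1. TPM served only for levels per length, shares and ratios. The gene test, without the length offset, and the edgeR usage test were also run on simulated counts.

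The 9 genes and the pathway and marker lists were chosen with earlier results of these data known. Named were the 9 genes, up to 6 pathway genes with the largest rise and up to 6 with the largest fall among those past the adjusted p without overlap, and HMOX1, BACH1 and SLC7A11. For transcripts, those with a mean share of at least 10% were taken. TRIM16L was left out because its symbol covers 2 overlapping gene entries. Sequences are from RefSeq promoter windows, with an entry for all of the 9 genes. Values of some listed genes are not reported here.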

Additional observations from a re-analysis of the deposited data

How the results depend on the processing

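The directions and test results of NFE2L2, KEAP1, NQO1, GCLM and OSGIN1 held under all 15 alternatives: TMM size factors, centring, no filter or a stricter filter on low counts, edgeR, no length offset, a replicate block, summing only longer or only protein-coding transcripts, and leaving out each library. Over all genes 2646 were called (2007 higher, 639 lower), and centring on the mean change made this 1608 higher and 1130 lower. Dropping the fold threshold gave 9260 genes in all and 34 in the pathway list in place of 6, and a test against an absolute log2 fold change of 1 gave 674 genes. limma called the usage of 2 of the described genes where edgeR called 0, and 3184 of 11938 genes where edgeR called 1101; the cause was not tested. Without Chelator replicate 2 edgeR called 592 genes for usage and without Chelator replicate 3 539.

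Leaving out 1 library at a time gave 2207 to 2607 called genes, 5 to 6 of the 9 genes with an adjusted p under 0.05, 1 to 1 past the fold threshold, 6 to 6 called and 27 to 33 passing in the pathway list, 0 to 0 called for usage, and log2 differences of 0.68 to 0.80 for NFE2L2 over KEAP1 and 0.44 to 0.77 for GCLC over GCLM. The groups share replicate numbers, but same-numbered libraries did not deviate together (r of -0.18, 0.01 and 0.07 over 10341 genes), so the numbers were not taken as pairing. With the replicate block 2345 genes were called, and 5 of the 9 genes passed as without it. BACH1 turned to -0.05 with centring and to -0.07 without Chelator replicate 1, never past the threshold. No exact permutation test could go below 0.10.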
